A study of Mus musculus with 3 samples.

Results

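The microglia of metastasis-bearing mouse brains were the 654 cells that the authors' deposited clustering placed in cluster 3, of 8443 cells used from the 4 brains with metastases and 13455 cells deposited for the whole series. They were chosen by cluster number alone, after 147 cells of that cluster whose barcodes were also listed among the naive brains had been dropped. The 2 Cx3cr1-/- brains (Hom1 and Hom2) gave 85 and 35 microglia, and the 2 Cx3cr1+/- brains (Het1 and Het2) gave 390 and 144. Microglia made up 7.75% of all used cells of the 4 brains.

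Microglia are the resident macrophages of the brain. They are kept distinct from blood-derived macrophages by a program that includes the ADP receptor P2ry12, the surface protein Tmem119, the Fc receptor-like protein Fcrls, the lysophospholipid receptor Gpr34 and the transcription factor Sall1. Cx3cr1 is their receptor for fractalkine, a neuronal chemokine, and is also carried by monocytes. When tissue is injured or infected, microglia can lower parts of this program, turn on genes induced by interferons and release chemokines such as Cxcl10, a ligand of the T cell receptor Cxcr3.

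The mice were C57Bl/6 females of 2 to 3 months, and all 4 carried brain metastases of E0771, a mouse mammary tumour line, seeded through the carotid artery about 2 weeks earlier. Cx3cr1-/- animals lack both functional copies of Cx3cr1, and Cx3cr1+/- animals, which served as the comparison, lack 1, so no brain with both copies was measured. The labels do not name the allele, but the RNA table holds an entry called EGFP. One hemisphere per brain was dissociated and enriched for immune cells on a Percoll gradient, stained with 35 tagged antibodies and a hashtag antibody of its own, and run with the other brains in 1 pooled 10x library, so every level here refers to cells that survived this preparation. The study's title asks how brain-native myeloid cells act on immune suppression through Cxcl10.

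Several features of these cells bear on the results. In all, 1138 barcodes stood in both the metastasis table and the naive table with identical raw UMI totals, among them 25.4% and 39.7% of the cluster 3 cells in Hom1 and Hom2, against 11.4% and 23.8% in Het1 and Het2. The Hom1 microglia were the most deeply sequenced, at a median depth of 12596 and 8335 raw UMIs in Hom1 and Hom2, against 7851 and 8929 in Het1 and Het2. The median mitochondrial share was between 3.2% and 3.9% in all 4 brains. A group of 4 cells labelled Hom1 carried at least 10 Cx3cr1 UMIs each, which goes against their label, and they also carried more hashtag UMIs than the other microglia of that brain, at a median of 1134 against 309. A single Het1 cell held 1704 UMIs of the neutrophil gene S100a8, which was 86.7% of that brain's total in microglia. Levels below are counts per 1000000 (CPM) of the authors' depth-corrected UMIs, summed over the microglia of each brain.

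The 4 markers put the label to the test, and all 4 stood far above every other cluster. P2ry12 reached 917, 755, 1320 and 1276 CPM in Hom1, Hom2, Het1 and Het2 microglia, against 50.8 CPM in cluster 1, the monocyte and macrophage cluster, which was the next highest. Gpr34 reached 775, 636, 951 and 998 CPM, against 30.8 CPM in cluster 1. Every brain was therefore far above the nearest other cluster for both receptors, 21.0-fold on average for P2ry12 and 27.3-fold for Gpr34. Tmem119 stood at 651, 804, 741 and 719 CPM, against 41.8 CPM in the next cluster. Fcrls stood at 1021, 503, 831 and 965 CPM, against 52.5 CPM. Cluster 9, of 7 cells, was left out of the ranking, with P2ry12 at 308 CPM. Since these cells were clustered on the same RNA, the contrasts between clusters describe the microglia and are not tests.

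The same held for the wider microglial program. Of 10 microglia markers, 10 were higher in cluster 3 than in any other cluster of at least 20 cells, and of 29 homeostatic genes 28 were. Among 1405 genes at 100 CPM or more, 372 were highest in microglia, 146 of them by at least 2-fold and 47 by at least 4-fold. The genes furthest above the next cluster included the fructose transporter Slc2a5 (132, 99.5, 146 and 164 CPM; 23.3-fold), the crystallin Crybb1 (22.5-fold) and Sall1 (153, 155, 180 and 171 CPM; 17.5-fold). The transcription factor list was less selective, with 11 of 15 genes highest in microglia. Some genes often used for microglia were shared here: Siglech, a sialic acid-binding lectin, stood at 811 CPM against 121 CPM in cluster 1, and the matrix protein Sparc at 2363 CPM against 1983 CPM in the endothelial-rich cluster 6.

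**Figure D1:**
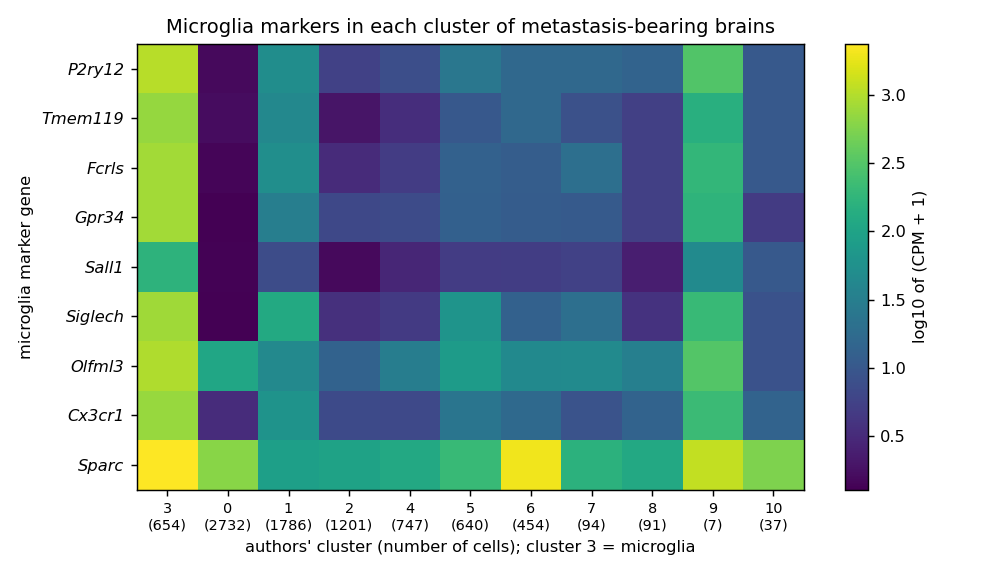
Mean level of 9 microglia markers (rows) in each metastasis cluster (columns, cluster 3 first), as log10 of CPM plus 1. Brighter colours are higher levels, and cluster 3 is the brightest column in every row, narrowly over cluster 6 for Sparc; cluster 9 holds only 7 cells and was left out of the ranking.

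The most abundant transcript was Cst3, the cysteine protease inhibitor cystatin C, at 39031 ± 10492 CPM (SD, n = 4 brains). The complement component C1qa stood at 8202 ± 480 CPM, against 1270 CPM in the next cluster, and the lysosomal proteases Ctss and Ctsd were at 6357 and 5944 CPM. The immediate early genes Jun and Fos, at 6573 and 5548 CPM, and the chemokine Ccl4, at 5303 CPM, were also among the 15 most abundant. Of those 15, Malat1, Tmsb4x, Actb and Fth1 were higher in another cluster.

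Most genes that define other brain cells were scarce. Cd163 and Lyve1 of border-associated macrophages, Clic6 of choroid plexus and Aqp4 of astrocytes had 0 UMIs in 654 cells, which allows a share of up to 0.459% of cells with a UMI, and the border macrophage gene Mrc1 stood at 1.88, 0, 2.86 and 2.35 CPM. Other members of the same lists were present: Ms4a7 of border macrophages and other macrophages stood at 37.5, 0, 4.4 and 42.8 CPM, the myelin gene Mbp at 21.6, 19.4, 17.8 and 20.5 CPM, and the choroid plexus gene Ttr at 94.8, 155, 157 and 172 CPM. The choroid plexus list summed to 97.75 to 404 CPM in clusters 0, 1, 2, 4, 5, 6, 7 and 8 too, against 161665 CPM in cluster 10. The border macrophage list had 1 of 7 genes at 10 CPM or more and summed to 44.1, 0, 11 and 50.5 CPM in the 4 brains, against 921.5 CPM in cluster 1. The summed monocyte and monocyte-derived macrophage list was 649, 830, 436 and 557 CPM in microglia, against 19296 CPM in cluster 1. The natural killer cell list was 308, 151, 11.7 and 166 CPM, against 12066 CPM in its own cluster, and the T cell list 98.5, 72.8, 13.9 and 162 CPM, against 2947 CPM. Cell cycle genes summed to 313, 189, 75.7 and 194 CPM. The neutrophil list summed to 143, 117, 1063 and 135 CPM, the Het1 value carrying the single S100a8-rich cell. Het1 thus had the lowest sums for natural killer, T and cycling cells, and the part of these sums in the genotype comparison was not tested.

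Surface protein, a readout the RNA clustering did not use, placed most of these cells where microglia are looked for. The authors' CD45-low CD11b-positive gate held 81.2% and 82.9% of the Hom1 and Hom2 microglia, against 95.1% and 84.7% of the Het1 and Het2 microglia. Of the 983 cells of all clusters in that gate, 591 (60.1%) were microglia by RNA. The finer gate number 0, taken as the microglia gate after its content was seen, held 560 cells, of which 558 were microglia by RNA. Another 33 microglia lay in gate number 1 and 17 in the T cell gate. The remaining group of note was the gate named BMDM, for bone marrow-derived macrophages, which held 12.9% and 14.3% of the Hom1 and Hom2 microglia, against 4.10% and 6.25% of the Het1 and Het2 microglia.

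The 41 microglia in the BMDM gate kept microglial RNA but carried other transcripts as well. P2ry12 stood at 937 CPM in them and at 1246 CPM in the 613 other microglia, and Tmem119 at 702 and 729 CPM. The MHC class II chain H2-Aa stood at 1088 CPM in them and at 59.3 CPM in the others, the invariant chain Cd74 at 3225 and 241 CPM, and the lipid carrier Apoe at 3323 and 1128 CPM. The monocyte receptor Ccr2 stood at 41.5 and 5.28 CPM. S100a8 stood at 466 and 241 CPM, and 1704 of its 1736 UMIs in the other microglia lay in the single Het1 cell named above. These cells were deeper, with a median of 16415 raw UMIs against 8293 in the others, and no doublet call was made here, so cells of this phenotype and droplets holding more than 1 cell cannot be told apart. These genes were chosen after the gates were seen, and the values are given as a description.

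Microglia formed 2.91% and 2.25% of the used cells in Hom1 and Hom2, with Wilson 95% intervals of 2.36 to 3.58% and 1.62 to 3.12%. They formed 28.8% and 5.52% in Het1 and Het2, with intervals of 26.5 to 31.3% and 4.71 to 6.46%. Both Cx3cr1-/- brains were below both Cx3cr1+/- brains, but the Cx3cr1+/- brains differed more from each other than Het2 differed from either Cx3cr1-/- brain. The difference of the means was -14.58 percentage points, and the two-sided exact permutation test gave p = 0.333, the smallest value that 2 brains against 2 allow. Without Het1 the difference was -2.94 points. Krt8-high cells, Krt8 being a keratin of epithelial tumours, were part of the denominator. Without them the shares were 6.58% and 3.89% in the Cx3cr1-/- brains, against 34.8% and 6.02% in the Cx3cr1+/- brains, and the groups overlapped (exact permutation p = 0.667). Intervals here cover counting error only.

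Within microglia, Cx3cr1 itself was checked first. It stood at 114 and 31.6 CPM in Hom1 and Hom2, against 1363 and 1464 CPM in Het1 and Het2, a log2 difference of -4.31 (SE 0.42, limma adjusted p = 0.0176). A Cx3cr1 UMI was found in 44 of 85 and 10 of 35 Cx3cr1-/- cells, against 390 of 390 and 141 of 144 Cx3cr1+/- cells. The groups did not overlap, and leaving out the 4 Cx3cr1-rich cells labelled Hom1 gave -4.76. The EGFP entry stood at 63.8 and 48.6 CPM in the Cx3cr1-/- brains, against 31.2 and 21.7 CPM in the Cx3cr1+/- brains, a log2 difference of 0.86 that did not pass the test (limma adjusted p = 0.341).

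Beyond Cx3cr1, 5 genes passed the test, all induced by interferons and all higher in Cx3cr1-/- microglia. They were Rsad2 (viperin, an antiviral radical SAM enzyme), Ifit2 (an antiviral tetratricopeptide protein), Ifi207 and Ifi204 (of the Ifi200 family, to which DNA sensors belong) and the chemokine Cxcl10. Of 7374 genes tested with limma on log2(CPM + 10), these 5 rose (0.0678%) and Cx3cr1 was the 1 that fell (0.0136%), and 635 genes had an unadjusted p under 0.05. Both Cx3cr1-/- brains were above both Cx3cr1+/- brains in 21.6% of all genes and below both in 19%.

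Rsad2 stood at 189.5 and 209 CPM in Hom1 and Hom2, against 17.2 and 21.7 CPM in Het1 and Het2, a log2 difference of 2.83 (SE 0.18, limma adjusted p = 0.00244). Ifit2 stood at 164 and 134 CPM, against 19.1 and 28.8 CPM, a difference of 2.23 (SE 0.21, limma adjusted p = 0.0165). In both genes the 2 brains of each genotype lay close together and the genotypes did not overlap. However, 1 Hom2 cell held 77.9% of that brain's Rsad2 UMIs and 56.4% of its Ifit2 UMIs. The highest Hom1 cell held 22.3% and 27.4%. The closeness of Hom1 and Hom2 thus rests in part on single cells. Cxcl10 was the most abundant of the 5, at 1084 and 1061 CPM in Hom1 and Hom2, against 256 and 347 CPM in Het1 and Het2, a difference of 1.81 (SE 0.16, limma adjusted p = 0.0165). Ifi207 stood at 166.1 and 165.1 CPM, against 28.6 and 46.9 CPM (1.91, SE 0.21, limma adjusted p = 0.0323), and Ifi204 at 298 and 279 CPM, against 70.6 and 101.5 CPM (1.66, SE 0.19, limma adjusted p = 0.0323). Ifi207 and Ifi204 belong to a family of similar neighbouring genes, so reads could be split between them in ways the sources do not state.

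The direction of these 6 genes was kept in the 14 other settings, but their calls were not. Without the single highest cell of each gene in each brain, an alternative chosen after the data were seen, only Cx3cr1 passed. Rsad2 was then 1.94 (limma adjusted p = 0.282), Ifit2 1.71 (limma adjusted p = 0.194), Cxcl10 1.51 (limma adjusted p = 0.0801), Ifi207 1.83 (limma adjusted p = 0.0801) and Ifi204 1.54 (limma adjusted p = 0.0928). Removing 1 cell takes a larger share of 35 cells than of 390. In cells of 5000 to 15000 raw UMIs no gene passed, with log2 differences of 1.52, 1.57, 1.94, 1.58 and 1.24 for Rsad2, Ifit2, Cxcl10, Ifi207 and Ifi204 (limma adjusted p = 0.866 each) and -4.21 for Cx3cr1 (limma adjusted p = 0.0777).

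**Figure D2:**
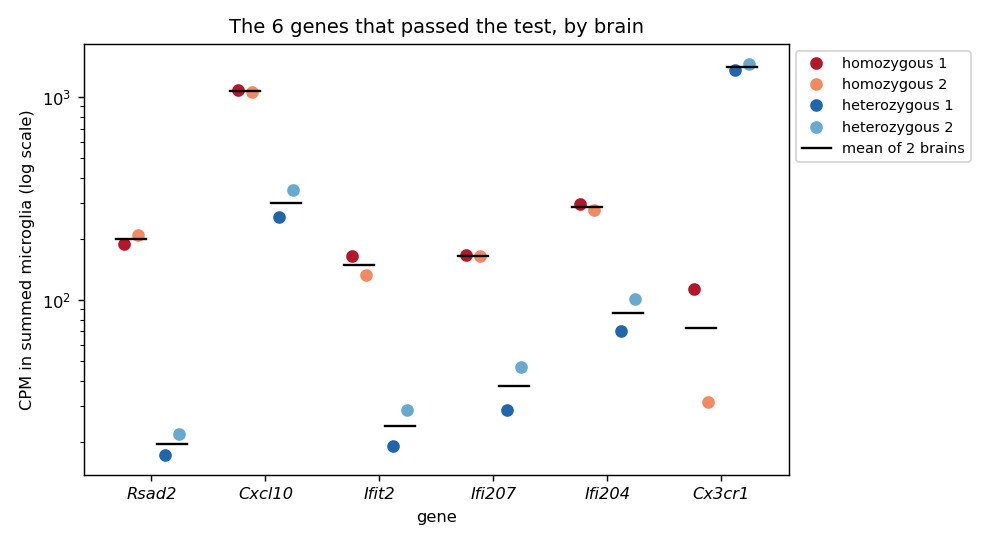
CPM on a log axis of the 6 genes that passed the test, in microglia of each brain, with Cx3cr1-/- brains (Hom1, Hom2) left of Cx3cr1+/- brains (Het1, Het2). The groups do not overlap in any panel; Cx3cr1 is lower and the other 5 are higher in the Cx3cr1-/- brains.

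Outside the interferon-induced genes, the gene next to passing on the higher side was Npl, an enzyme that breaks down sialic acid, at 388 and 330.1 CPM in Hom1 and Hom2, against 159.9 and 140.2 CPM in Het1 and Het2 (1.20, limma adjusted p = 0.0614). On the lower side the genes next to passing were the proteoglycan Sdc4 (-1.05, limma adjusted p = 0.122), the transcriptional regulator Cited2 (-0.81, limma adjusted p = 0.146), the actin-bundling protein Fscn1 (-0.88) and the zinc finger factor Zbtb20 (-0.92). Cst3, the most abundant transcript, differed by -0.65 (limma adjusted p = 0.203), and H2-Eb1 and P2ry12 were also among the 10 lowest p-values of that side. None of these passed.

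The promoters of the risen genes are shown because interferon-stimulated genes are switched on through a known element, in which GAAA and GAA are separated by a pair of bases of any kind (GAAANNGAA, searched on both strands). The 3 sequences are the 250 bases upstream of the start on the gene's strand, from RefSeq (GRCm38.p6), and capitals mark the match.
Cxcl10 (chr5:92348890-92349139, minus strand): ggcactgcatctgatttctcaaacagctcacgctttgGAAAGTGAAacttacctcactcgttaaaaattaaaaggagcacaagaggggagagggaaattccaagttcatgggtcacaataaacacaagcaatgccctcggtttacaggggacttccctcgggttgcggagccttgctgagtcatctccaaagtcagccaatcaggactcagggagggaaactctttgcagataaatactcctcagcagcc
Rsad2 (chr12:26456453-26456702, minus strand): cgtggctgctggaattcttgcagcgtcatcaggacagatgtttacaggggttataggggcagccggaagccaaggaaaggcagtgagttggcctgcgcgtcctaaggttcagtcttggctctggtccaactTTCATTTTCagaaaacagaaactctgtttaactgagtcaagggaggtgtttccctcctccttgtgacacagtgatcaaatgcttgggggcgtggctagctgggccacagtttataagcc
Ifi207 (chr1:173741810-173742059, minus strand): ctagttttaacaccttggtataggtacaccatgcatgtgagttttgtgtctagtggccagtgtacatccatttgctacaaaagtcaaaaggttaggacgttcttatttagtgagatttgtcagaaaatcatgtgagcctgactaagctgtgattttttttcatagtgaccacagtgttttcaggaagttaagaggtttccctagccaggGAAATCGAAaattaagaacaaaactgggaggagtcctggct
The match began 213 bases before the start in Cxcl10, 119 bases before it in Rsad2, where it lies on the opposite strand and so reads TTCATTTTC, and 41 bases before it in Ifi207. Both Ifit2 windows and that of Cx3cr1 held no match, and Ifi204 was not matched to a window. Cxcl10 lies at chr5:92346638-92348889, Rsad2 at chr12:26442743-26456452 and Ifi207 at chr1:173723424-173741831.

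The match was frequent in windows of the interferon-stimulated list. None was found in those of microglial identity genes, which are too few to read this as a trait of these genes. Of 32851 windows of 300 bases, from 250 before to 50 after a start, 8.56% held GAAANNGAA. In the interferon-stimulated list 29 of 49 windows did (59.2%), covering 40 of its 52 genes. Among the homeostatic genes 0 of 28 windows held it, covering 22 of 29 genes, and 0 of 18 windows among the 20 genes furthest above other clusters. The longer form with AC after it was in 0.819% of all windows and in 40.8% of the interferon-stimulated ones. The Cxcl10 window held the longer form too, but Cxcl10 was on the chemokine list and is not counted in that share. GAGGAAGT, a form of the binding site of the myeloid factor PU.1, was in 3.2% of all windows, in 1 of 28 homeostatic windows and in 0 interferon-stimulated ones. The 3 motifs were chosen with the results known, the longer one overlaps the shorter, and a match is a description of letters only.

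The rest of the interferon-stimulated list lay on the same side of 0 as the genes that passed. All 48 of its tested members had a positive log2 difference, and 4 of them rose by the test. In 38 of the 48 both Cx3cr1-/- brains were above both Cx3cr1+/- brains, beside 21.6% of all genes tested. The list's median difference was 0.94, beside 0.01 over all 7374 genes. Members next to the threshold without passing it included Oasl1 (1.72, limma adjusted p = 0.0614), Ifit3 (1.79), the ubiquitin-like protein Isg15 (1.35, limma adjusted p = 0.0630) and Slfn5 (1.49). The Cx3cr1+/- brains were not alike: the median of the list was 0.44 higher in Het2 than in Het1, while Hom1 and Hom2 differed by 0.03. Ifi27l2a showed this most plainly, at 1271 and 1253 CPM in Hom1 and Hom2, against 196 and 571 CPM in Het1 and Het2 (1.88, limma adjusted p = 0.237). In cells of 5000 to 15000 raw UMIs the list's median was 0.64.

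Among 12 chemokine genes, Cxcl10 rose, the others did not pass, and 10 of 12 differences were positive with a median of 0.41. The monocyte attractants Ccl12, Ccl2 and Ccl7 differed by 1.16 (limma adjusted p = 0.207), 0.97 and 0.72. The chemokines Ccl3 and Ccl4 differed by 0.35 and 0.46. Cxcl9, the other Cxcr3 ligand of the list, went the other way at -0.71. Of 17 inflammatory cytokine and NF-kappaB genes 7 differences were positive and 10 negative, and Tnf differed by 0.46 (limma adjusted p = 0.341).

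Homeostatic genes lay mostly below 0 and none passed. Of 29 tested, 26 had a negative and 3 a positive difference (Olfml3, Cd81 and C1qa), and the median was -0.27. In 15 of the 29 both Cx3cr1-/- brains were below both Cx3cr1+/- brains, beside 19% of all genes tested. P2ry12, whose values by brain are given above, differed by -0.64 (limma adjusted p = 0.237) and Gpr34 by -0.47 (limma adjusted p = 0.423). Fcrls differed by -0.32 (limma adjusted p = 0.771), with Hom2 the lowest and Hom1 the highest of the 4 brains. Tmem119 differed by -0.01, with overlapping genotypes. The transcription factors had a median of -0.11, with 5 positive and 10 negative differences. Among 19 surface receptors Cx3cr1 fell and the median was -0.10, and the bacterial lipoprotein receptor Tlr2 had the opposite sign at 0.81.

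Genes of disease-associated microglia, a state described around plaques and injury in which lipid and phagocytic genes are raised, were mostly positive, at 22 of 24 with a median of 0.39 and none past the test. In 13 of the 24 both Cx3cr1-/- brains were above both Cx3cr1+/- brains, beside 21.6% of all genes tested. The receptor kinase Axl stood at 73.2 and 58.3 CPM in Hom1 and Hom2, against 18.3 and 25.2 CPM in Het1 and Het2 (1.26, limma adjusted p = 0.128). Apoe differed by 1.00 (limma adjusted p = 0.484), the lipoprotein lipase Lpl by 1.38 (limma adjusted p = 0.320) and Cd36, a fatty acid receptor of the lipid handling list, by 1.60 (limma adjusted p = 0.121). Trem2, the receptor on which this state depends in mouse, was at 1723 and 1656 CPM, against 1693 and 1747 CPM, so its genotypes overlapped. In cells of 5000 to 15000 raw UMIs the median of this list was 0.22.

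MHC class II genes ran the other way, with 6 of 8 negative and a median of -0.93. In 4 of the 8 both Cx3cr1-/- brains were below both Cx3cr1+/- brains, beside 19% of all genes tested. Het2 held the highest value in 6 of 8, Cd74 included, at 232 and 289 CPM in Hom1 and Hom2, against 265 and 1100 CPM in Het1 and Het2. H2-Eb1 stood at 17.8 and 14.6 CPM in Hom1 and Hom2, against 68.6 and 332 CPM in Het1 and Het2 (-2.65, limma adjusted p = 0.239). The RNA sat in few cells: an H2-Aa UMI was found in 15.3% and 11.4% of the Cx3cr1-/- cells, against 14.4% and 27.1% of the Cx3cr1+/- cells, and the most in 1 cell was 2 and 6 UMIs, against 124 and 165. MHC class I genes were positive in 13 of 14, with a median of 0.26. The Cx3cr1+/- brains differed from each other in both lists, with the median of class I genes 0.53 and that of class II genes 1.18 higher in Het2 than in Het1.

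The other lists had medians smaller than that of the interferon-stimulated list. Of 16 proliferation genes 14 were positive with a median of 0.57, and an Mki67 UMI was found in 15.3% and 11.4% of Cx3cr1-/- cells, against 3.08% and 7.64% of Cx3cr1+/- cells. In cells without any of 11 markers of other types, the median of the shorter cycling marker list was -0.12, beside 0.69 in all microglia. The median of the proliferation list did not change sign there. Immediate early and stress genes were negative in 19 of 25 (median -0.24), TGF-beta and interleukin 10 genes in 11 of 13 (-0.20), and lysosomal genes were positive in 19 of 26 (0.20). Oxidative phosphorylation and glycolysis genes were positive in 13 of 16 and 11 of 13, with medians of 0.22 each. Complement, cholesterol and co-signalling genes had medians of 0.13, 0.06 and -0.04. None of these genes passed the test.

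The genotype difference of microglia was set against that of the blood-derived cells of the same brains, the Ly6C-high and Ly6C-low gated cells of cluster 1, by a test of the difference between the differences. Ly6C-high gated cells numbered 178, 165, 82 and 277 in Hom1, Hom2, Het1 and Het2, and Ly6C-low gated cells 198, 102, 74 and 220. Against the Ly6C-low cells, 2 of 7347 genes passed (0.0272%), Cd36 and Lpl. Against the Ly6C-high cells, limma called 0 of 7264 genes (0%), with 399 below 0.05 before adjustment.

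Cd36 stood at 35.7 and 24.3 CPM in Hom1 and Hom2 microglia, against 2.64 and 3.52 CPM in Het1 and Het2 microglia. In Ly6C-low cells the order was turned, at 18.04 and 11.16 CPM in Hom1 and Hom2, against 63.5 and 60.5 CPM in Het1 and Het2. The genotypes did not overlap in either cell type, and the difference between the effects was 3.16 (SE 0.25, limma adjusted p = 0.00599). These levels rest on few molecules in microglia, since a Cd36 UMI was found in 22 of 85 and 4 of 35 Cx3cr1-/- cells, against 7 of 390 and 4 of 144 Cx3cr1+/- cells. Lpl stood at 175.5 and 124 CPM in Cx3cr1-/- microglia, against 32.3 and 76.3 CPM in Cx3cr1+/- microglia. In Ly6C-low cells it stood at 86.9 and 58.2 CPM, against 84.3 and 194 CPM, so the groups overlapped there, and the difference between the effects was 2.15 (SE 0.24, limma adjusted p = 0.0438). Neither gene passed the difference test with a pseudocount of 1 CPM, with no filter on low levels, in cells of 5000 to 15000 raw UMIs or in microglia without markers of other types.

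The interferon-induced genes were not shown to differ from the blood-derived cells. Rsad2 was higher overall in Ly6C-high cells, at 1062 and 1180 CPM in Hom1 and Hom2, against 742 and 604 CPM in Het1 and Het2, and the microglial effect exceeded that by 2.10 (limma adjusted p = 0.590). Cxcl10 stood at 4353 and 4046 CPM in Ly6C-high cells of Hom1 and Hom2, against 3533 and 5488 CPM in Het1 and Het2, where the groups overlapped, and the microglial effect exceeded that one by 1.88 (limma adjusted p = 0.502). The medians of the interferon-stimulated list were 0.94 in microglia, 0.45 in Ly6C-high cells and 0.50 in Ly6C-low cells. Those of the disease-associated list were 0.39, 0.06 and -0.06, and those of the homeostatic list -0.27, -0.25 and -0.20.

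**Figure D3:**
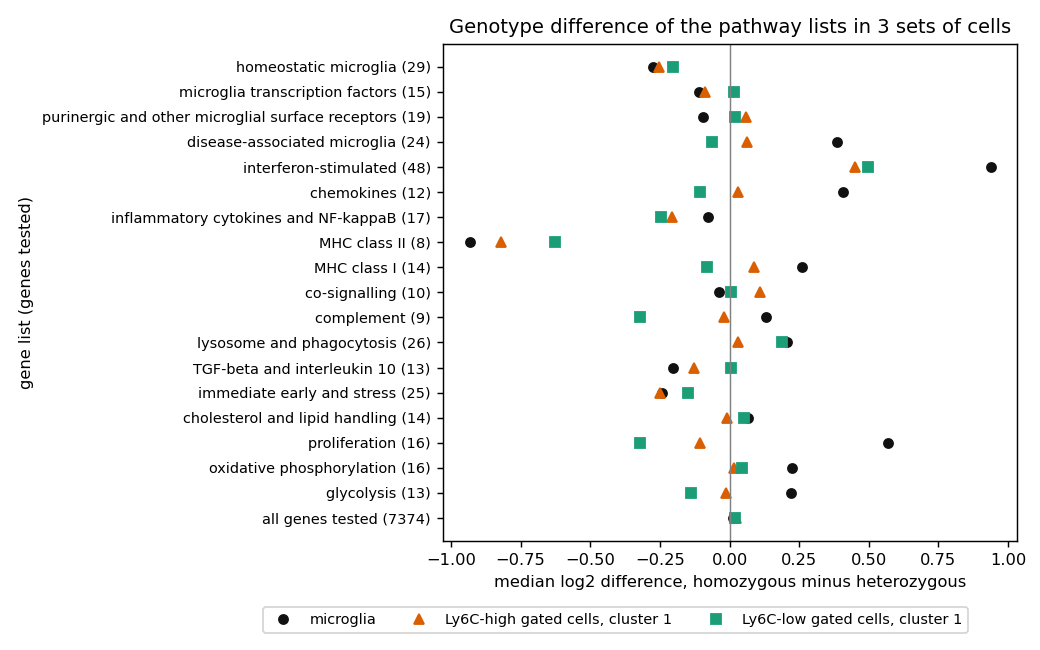
Median log2 difference, Cx3cr1-/- minus Cx3cr1+/-, of each pathway list (rows, with the number of genes tested) in microglia (circles), Ly6C-high (triangles) and Ly6C-low (squares) gated cells. The interferon-stimulated median lies furthest right in microglia at 0.94, and MHC class II lies below 0 in all 3 sets.

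Between single cells, microglia were more even in their summed identity markers than in a short list of response genes. After each cell was thinned to 3000 UMIs, the median squared coefficient of variation beyond counting noise was 0.147 over 651 genes, with 10% of genes below 0.0271 and 10% above 0.611. The value of each gene was its median over the 4 brains, and it was above 1 for 29 genes. The genes leading the ranking were Cd74 (8.08), Cxcl10 (7.49), the chemokine Ccl2 (7.31) and Apoe (7.30), followed by the protease Adamts1 (4.14), interleukin 1 beta (Il1b, 4.10), the G protein regulator Rgs1 (3.35), Ifi27l2a (3.18), the cell cycle inhibitor Cdkn1a (3.07) and the transcription factor Klf4 (3.01). Cxcl10 was uneven in all brains, at 5.26 and 7.29 in Hom1 and Hom2, against 7.69 and 7.98 in Het1 and Het2. Cd74 was at 2.59 and 5.44, against 28.2 and 10.7, and Apoe at 4.72 and 3.04, against 14.4 and 9.88, so both genes were more uneven in the Cx3cr1+/- brains. Without thinning, and at 2000 UMIs, 19 of the 20 leading genes were the same. The summed 10 microglia markers gave 0.0723 and 0.0365 in Hom1 and Hom2, against 0.0391 and 0.0676 in Het1 and Het2. The summed interferon-stimulated list gave 1.15 and 0.972, against 1.25 and 0.87. Single identity genes were not found in every cell: Fcrls had a UMI in 96.5% and 85.7% of cells, against 93.85% and 94.4%.

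A few cells carried most of the Cxcl10. The 10% of cells richest in it held 68.6% and 86.3% of its UMIs in Hom1 and Hom2, against 80.1% and 72.6% in Het1 and Het2. For P2ry12 the richest 10% held 21.4% and 26.7%, against 20.3% and 20.6%. One Hom2 cell, at 5763 raw UMIs among the shallower of that brain, was the highest for all 5 risen genes, with 67 Rsad2, 162 Cxcl10, 31 Ifit2, 15 Ifi207 and 25 Ifi204 UMIs. It held 77.9% of that brain's Rsad2 UMIs and 37.1% of its Cxcl10 UMIs. One Hom1 cell of 25150 raw UMIs was the highest for 4 of the 5, with 45 Rsad2, 234 Cxcl10, 48 Ifit2 and 14 Ifi207 UMIs. In Het1 and Het2 the highest cells of the 5 genes were 3 and 5 different cells. These cells were looked up after the calls were known.

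Shares of cells with a UMI were read against cluster 2, the Cd3g-high cells of the same pooled library, because free RNA reaches every droplet. Cluster 2 had a median of 5409 raw UMIs per cell, and microglia 8470. The shares were counted on corrected UMIs, with medians of 11616 in cluster 2 and 11498 in microglia. They are therefore not shares of cells with a raw UMI. Ifi207 stood clear of that level: a UMI was found in 48.2% and 51.4% of microglia in Hom1 and Hom2, against 10.8% and 20.1% in Het1 and Het2, and in 1.92% of cluster 2. After thinning to 3000 UMIs the shares of microglia were 31.8% and 34.3%, against 4.87% and 11.8%, and that of cluster 2 was 0.833%. Ifi204 was found in 64.7% and 54.3% of microglia, against 22.6% and 33.3%, and in 22.2% and 18.9% of cluster 2, against 17.6% and 14.7%, so the Het1 share of microglia lay near that of cluster 2.

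The shares of the other 3 risen genes did not stand clear of cluster 2 in the way those of Ifi207 did, and a share alone is not read as expression. Cluster 2 cells could hold RNA of these genes of their own, which was not tested. Their shares are therefore not a measure of free RNA alone. A Cxcl10 UMI was found in 60.0% and 40.0% of microglia in Hom1 and Hom2, against 33.6% and 43.1% in Het1 and Het2, and in 38.0% and 32.1% of cluster 2, against 32.4% and 32.4%. Rsad2 was found in 23.5% and 22.9% of microglia in Hom1 and Hom2, against 7.95% and 9.72% in Het1 and Het2. In cluster 2 it was found in 28.2% and 27.7%, against 25.5% and 15.6%, so microglia lay below cluster 2 in every brain. Ifit2 was found in 36.5% and 22.9% of microglia, against 10.3% and 14.6%. In cluster 2 it was found in 23.1% and 23.3%, against 15.7% and 13.03%, so microglia lay above cluster 2 in Hom1 and Het2 only. Cd36 was found in 5.66% of microglia and 0.25% of cluster 2, and P2ry12 in 2.83% of cluster 2.

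Some of the risen genes also stood higher in Cx3cr1-/- cells of other clusters. In cluster 2 the Cxcl10 level was 486 and 576 CPM in Hom1 and Hom2, against 660 and 348 CPM in Het1 and Het2, so the genotypes overlapped. In cluster 4, where natural killer genes were highest, it was 627 and 431 CPM, against 159.6 and 183 CPM. In cluster 6, where endothelial genes were highest, it was 570.5 and 467.5 CPM, against 135 and 300 CPM. Neither of these 2 clusters overlapped between genotypes, and the same held in both for Rsad2, Ifit2 and Ifi204. In cluster 2 Rsad2 overlapped, but Ifit2 (64.3 and 59.2 CPM, against 39.9 and 30.9 CPM) and Ifi204 (72.8 and 75.5 CPM, against 62.0 and 41.2 CPM) did not. The share of all genes without overlap was not computed for clusters 2, 4 and 6. In microglia both Cx3cr1-/- brains were above both Cx3cr1+/- brains in 21.6% of all genes tested. Rsad2 stood at 148.5 and 127 CPM in cluster 6 of Hom1 and Hom2, against 52.8 and 84.8 CPM in Het1 and Het2, and at 74.5 and 41.8 CPM in cluster 4, against 16.9 and 18.9 CPM. Ifi207 stayed at or below 12.6 CPM in clusters 2, 4 and 6 of every brain. These levels were not tested, and the part of free RNA in the microglial differences was not tested.

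Per cell, interferon-stimulated and homeostatic RNA ran in opposite directions in all 4 brains. The interferon-stimulated list took a median of 12 and 16 of 3000 UMIs per cell in Hom1 and Hom2, against 4 and 7 in Het1 and Het2, with maxima of 138 and 79, against 49 and 46. The homeostatic list took 183 and 182, against 247 and 276. Spearman's rho between them was -0.665 over 85 cells and -0.635 over 35 cells in Hom1 and Hom2, against -0.283 over 390 and -0.517 over 144 cells in Het1 and Het2. The sums share a fixed total of 3000 UMIs, so more of 1 leaves less for the rest. Both also moved with depth: rho with raw UMIs was 0.531 and 0.396 for the interferon-stimulated list in the Cx3cr1-/- brains, against 0.0894 and 0.195, and -0.587 and -0.195 for the homeostatic list, against -0.024 and -0.313. The immediate early list gave -0.749 and -0.296, against -0.21 and -0.242, and the disease-associated list 0.507 and 0.234, against 0.242 and -0.0139. The part of depth in the relations between lists was not tested.

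Of 8 pairs of lists set against each other after the data were seen, the other 7 were weaker or less even over brains. Interferon-stimulated and chemokine sums had rho of 0.568 and 0.638 in Hom1 and Hom2, against 0.109 and 0.185 in Het1 and Het2. Chemokine and inflammatory sums ran together in all brains, at 0.229 and 0.499, against 0.280 and 0.265. Disease-associated and homeostatic sums had -0.453 and -0.185, against 0.0355 and 0.115. Immediate early and stress genes, which dissociation is known to induce, gave 0.572 and -0.103, against -0.0867 and 0.0915, with the homeostatic list, and -0.0543 and 0.387, against 0.143 and 0.252, with the inflammatory list. MHC class II sums stayed between -0.235 and 0.272 with the homeostatic and the monocyte lists. Cells of 1 brain are not replicates, so these values are descriptions.

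**Figure D4:**
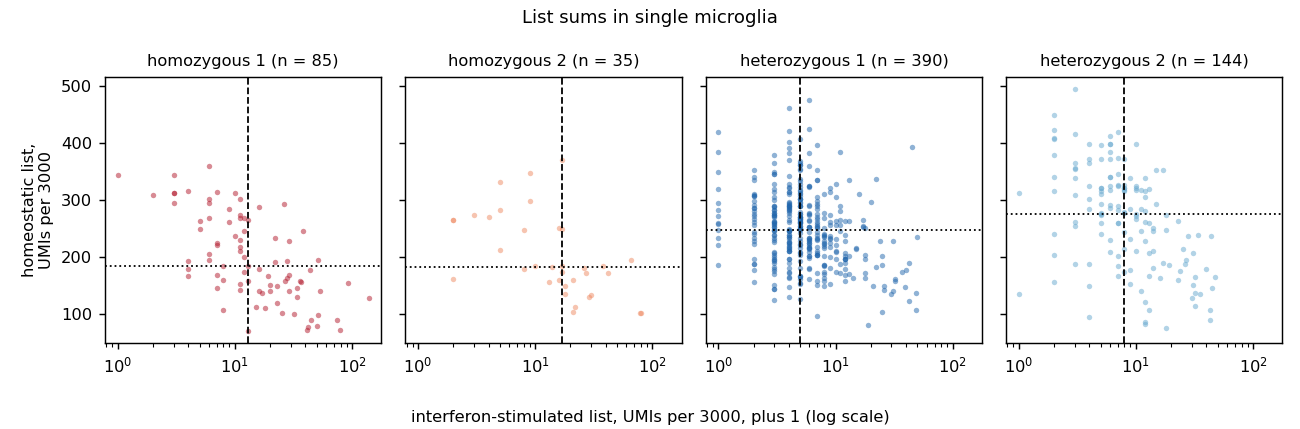
UMIs of the interferon-stimulated list against UMIs of the homeostatic list per 3000 UMIs, 1 point per microglial cell and 1 panel per brain, Cx3cr1-/- brains first, with lines at the medians. The interferon median is 12 and 16 in Hom1 and Hom2 and 4 and 7 in Het1 and Het2, and high-interferon cells lie toward low homeostatic sums.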

How the data were processed

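Single cells of 4 metastasis-bearing brains were read from the authors' deposited table of natural log (ln) values, which are the ln of depth-corrected UMI counts with 1 added. All non-zero values were whole within 1e-06 after the exponential was undone. Because these are corrected and not raw counts, no count model was fitted. The deposited metadata gave raw UMI counts per cell, cluster numbers, surface gates, hashtag UMI counts and the brain of each cell, and other deposited columns, such as hashtag scores, were not used for tests. Per the submitters' processing notes, Cell Ranger 3.1, Seurat 3.1.1 and mm10 were used. Other deposited values, such as naive RNA and antibody tag counts, were not analysed here.

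Corrected UMIs were summed per brain (1065773 and 411941 in Hom1 and Hom2, against 4545825 and 1704195 in Het1 and Het2), scaled to CPM and tested as log2(CPM + 10) with limma 3.58.1 in R 4.3.3 (trended, genes of mean CPM above 10, Benjamini-Hochberg adjusted p under 0.05). The fit had 2 brains per genotype, and genes of a mean above 10 CPM averaged over both sets of cells entered the difference tests. That filter, and the Ly6C gates of cluster 1, were chosen after seeing the files, since monocytes and macrophages had been planned as separate clusters and shared 1. The labels do not say more of the brains than that each was a sample, so p-values measure the spread between these 4 brains. In simulated data with 200 changed genes of 7374, limma recovered 91.5 to 95% of 2-fold and 100% of 4-fold changes, with 2.09 to 7.41% false calls. The simulated noise was normal on the log scale, with the same spread for all genes of a given level. It held no gene that varied more than others of its level and no cell far above the rest. These rates therefore do not carry over to such genes in the real data.

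Named genes were the markers, the genes called, the 10 next by p in each direction, and the 20 leading genes for identity and spread. Other genes were chosen after their values were seen. The cells and all 33 gene lists were chosen with earlier results of these data known. Figures used matplotlib 3.10.9.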

Additional observations from a re-analysis of the deposited data

Results flagged for a closer look

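Cd36 drew attention because the genotype difference in microglia (Cx3cr1-/- minus Cx3cr1+/-, log2) exceeded that in the Ly6C-low gated cells of the same brains by 3.16 in a test of the difference itself (SE 0.25, limma adjusted p = 0.00599). Both Cx3cr1-/- brains were above both Cx3cr1+/- brains in microglia and below both in Ly6C-low cells. Lpl, the lipase that releases fatty acids from lipoproteins, drew attention for the same reason, with a difference of 2.15 (SE 0.24, limma adjusted p = 0.0438). Against Ly6C-high cells the same differences were 2.51 (limma adjusted p = 0.249) for Cd36 and 1.12 (limma adjusted p = 0.861) for Lpl, and neither passed.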

How the results depend on the processing

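The 6 calls in microglia became 1 with no filter on low levels, 1 without the variance trend, 2 with all deposited cells, 0 in cells of 5000 to 15000 raw UMIs (limma, 372 genes at an unadjusted p under 0.05), 10 in cells with no marker of another type, 10 in gate number 0 and 1 without the highest cell of each gene. Leaving out 1 brain gave 36 to 88, where the lone brain of a genotype is assumed to vary like the others. The count stayed at 6 with a pseudocount of 1 CPM, with median-ratio scaling, which moved the share of positive differences to 46.3%, against 51.6%, and without the 4 Cx3cr1-rich cells labelled Hom1. Over these settings Rsad2 ran from 1.52 to 3.45 and passed in 13 of 15, Cxcl10 from 1.49 to 2.26 (10), Ifit2 from 1.57 to 2.70 (10), Ifi207 from 1.52 to 2.19 (10), Ifi204 from 1.24 to 1.89 (9) and Cx3cr1 from -5.10 to -2.57 (12). Their adjusted p reached 0.866 for the risen genes and 0.258 for Cx3cr1. The 2 calls against Ly6C-low cells became 0 with a pseudocount of 1 CPM, with no filter, at 5000 to 15000 raw UMIs and with no marker of another type, 1 without the trend, with all deposited cells and without the highest cell of each gene, and 2 to 236 without 1 brain. The 0 calls against Ly6C-high cells became 1 with all deposited cells and 0 to 199 without 1 brain. Tmem119 (-0.01) turned sign at 0.0097 with all deposited cells, at 0.088 at 5000 to 15000 raw UMIs and without Het1 or Hom1, running from -0.16 to 0.14 without 1 brain, and Fcrls (-0.32) ran from -0.82 to 0.19, turning without Hom2. The cause was not tested. The share difference ran from -26.2 to -2.94 points without 1 brain. Of the 33 lists, 13 had a median that changed sign under some setting: the natural killer median was 0.91, and -0.18 without Het1, and the neutrophil median -2.44, and 0.10 with no marker of another type. The settings without Cx3cr1-rich cells and without the highest cells were chosen after seeing the data. Leaving out the highest cells moved the median of all genes to -0.08. No paired analysis was possible because the labels give the brains no replicate numbers: those used here only name the brains, in hashtag order, and tie none to a shared batch or day. Depth limits genes such as Cd36, found in 37 of 654 cells.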
